A study of Mus musculus with 85 samples.

Results

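The miR-143 and miR-145 cluster is a pair of miRNA genes that are made from one RNA transcript in smooth muscle. Its members here are the 4 mature miRNAs cut from the 2 hairpins, mmu-miR-143-3p, mmu-miR-143-5p, mmu-miR-145a-5p and mmu-miR-145a-3p, which were chosen by name among 1977 listed miRNAs. They were measured in 85 heart libraries, 1 from each female mouse, made with a QIAseq miRNA kit from total RNA. The mice came from the Hybrid Mouse Diversity Panel, a collection of inbred strains. All of them ate chow for 8 weeks and then, up to 16 weeks of age, a further 8 weeks of food rich in fat and sucrose (HF/HS), so there was 1 group and no untreated control. The strain of each mouse is not in the labels, and no comparison between strains was made.

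A miRNA is cut from a hairpin RNA as 2 arms, named 5p and 3p. One of them, the guide, usually stays in the silencing complex and pairs with messenger RNAs through its seed, bases 2 to 8, while the other, the passenger, is mostly lost. MiR-143 and miR-145 are the classic miRNAs of vascular smooth muscle, where their transcript is switched on by serum response factor and myocardin and where they favour the contractile state. In the heart they mark vessel walls and other mural cells more than cardiomyocytes. MiR-126 is the matching marker of endothelium, the inner lining of the same vessels, and miR-1 and miR-133a mark cardiomyocytes. In whole-heart RNA, fewer cells of a type and less RNA per cell cannot be told apart.

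The 4 sequences printed here belong to miRNAs whose counts were set against the cluster. MiR-126a-3p is the endothelial miRNA used as a second reference for the counts, miR-126b-3p and let-7c-5p had the largest positive correlations with miR-143-3p and miR-145a-5p in turn, and miR-30e-5p had the largest negative correlation with miR-145a-5p. Capitals mark the seed, and the sequences are RefSeq's on GRCm38.p6, written 5′ to 3′.
mmu-miR-126a-3p: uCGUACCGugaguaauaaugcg
mmu-miR-126b-3p: cGCGUACCaaaaguaauaaugug
mmu-miR-30e-5p: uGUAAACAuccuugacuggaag
mmu-let-7c-5p: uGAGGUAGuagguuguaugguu
MiR-126a-3p lies at chr2:26591402-26591423 on the plus strand and miR-126b-3p at chr2:26591363-26591385 on the minus strand of the same hairpin region. These 2 stretches do not overlap. Without a stated strand setting in the counting, the miR-126a and miR-126b values are uncertain where arms on opposite strands overlap. MiR-30e-5p lies at chr4:120772660-120772681 on the minus strand. Let-7c-5p has 2 identical copies, at chr15:85706616-85706637 and chr16:77599672-77599693, which share their counts.

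In the GENCODE M21 annotation of GRCm38, Mir145a (ENSMUSG00000065592.2) is at chr18:61647825-61647894 and Mir143 (ENSMUSG00000065445.3) at chr18:61649196-61649258, both on the minus strand. The hairpins span 70 and 63 bases and are 1301 bases apart, with Mir143 upstream. RefSeq places both inside the long noncoding RNA Carmn (61645878 to 61665538), the host transcript of the cluster. GENCODE ends Carmn 366 bases upstream of Mir143, and the lincRNA Bvht, on the opposite strand, ends 352 bases from Mir145a. In RefSeq, no other gene than Carmn overlaps the hairpins, and GENCODE was not searched for others. The related mmu-miR-145b, from another place on the chromosome, is listed with 0 counts.

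MiR-143-3p was among the most abundant miRNAs of these hearts, and miR-145a-5p was far lower although both come from one transcript. MiR-143-3p held 42881 of 1142199 counts, 3.75% (95% Wilson interval 3.72 to 3.79), and ranked 6 among all miRNAs. MiR-145a-5p held 2986 counts, 0.261% (0.252 to 0.271), and ranked 40. The passenger arms were close to each other, with 209 counts of miR-143-5p (rank 119) and 205 of miR-145a-3p (rank 120). Mature miRNAs have nearly the same length, so counts were not divided by it. All intervals cover counting error only, and capture by the library kit can differ between sequences.

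The counts behind single hearts were small for all members but miR-143-3p. Library totals ranged from 1457 to 30202 with a median of 12248. MiR-143-3p had 52 counts in its lowest library, a median of 466 and 971 in its highest. MiR-145a-5p had 8, 27 and 134 counts by the same order, and at least 10 in 82 of 85 libraries. MiR-143-5p was at 0 in 11 libraries and miR-145a-3p in 10, and neither went above 9 counts in any heart. A count of 0 allows up to 3 counts, which is 0.644% of the median miR-143-3p count and 11.1% of the median miR-145a-5p count. Both guide arms passed the filter on low counts, which kept 51 of the 548 miRNAs with a count, and the 2 passenger arms did not.

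Each hairpin gave nearly all of its counts from one arm. The 3p arm held 99.5% (99.4 to 99.6) of miR-143 counts, and the 5p arm held 93.6% (92.7 to 94.4) of miR-145a counts. The passenger share was therefore 0.485% for miR-143 and 6.42% for miR-145a, with intervals that do not meet. In stretches of library numbers, summed over their hearts, the miR-145a-3p share was 4.96% in libraries 1 to 10, 4.04% in 11 to 21, 7.26% in 22 to 48, 5.70% in 49 to 59 and 8.92% in 60 to 85. The interval of the lowest, 2.47 to 6.56%, stays under that of the highest, 7.04 to 11.3%, while neighbours in this order overlap. The miR-143-5p share stayed between 0.380% and 0.732%.

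The miRNA profile of these libraries changed in steps with library number, which rises with animal number in the labels. With the members left out, the leading principal component took 75.03% of the variance and parted 27 libraries from 58. Libraries 1 to 10 and 49 to 59 were all in the smaller set and libraries 22 to 48 and 60 to 85 all in the larger, while libraries 11 to 21 held 6 of the smaller and 5 of the larger. These stretches are called runs here. A shared preparation, strain order or sample quality cannot be told apart from them with the labels used here. Levels between runs are given as descriptions, correlations were computed on deviations from run means over the 74 libraries of the other 4 runs, and libraries 11 to 21 entered none.

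**Figure D1:**
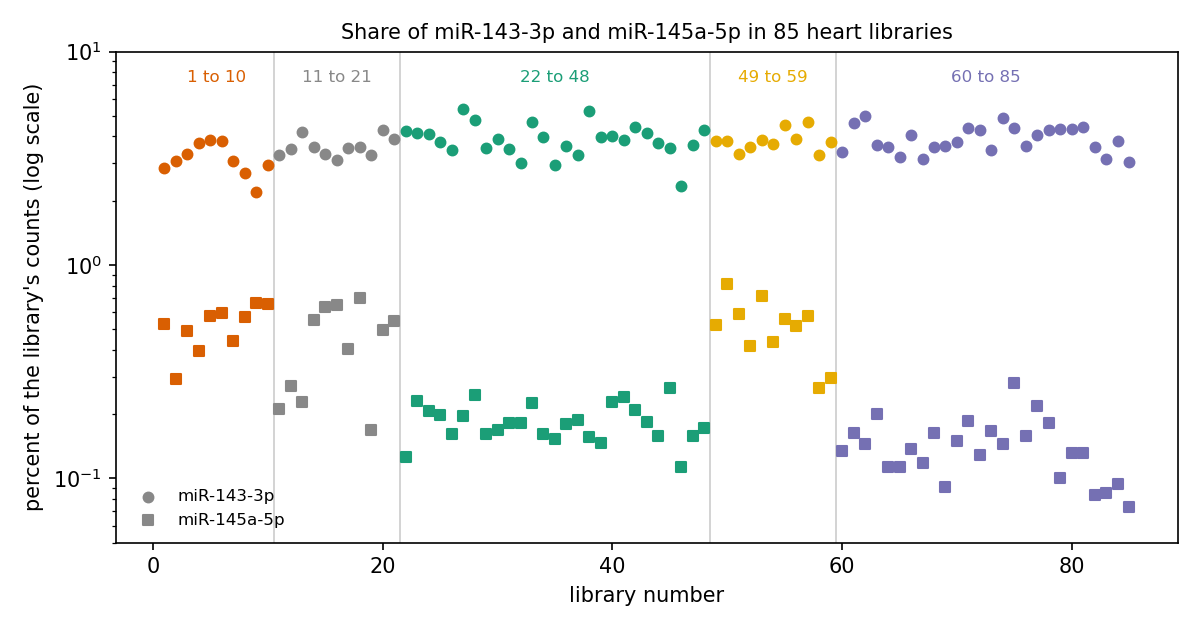
Percent of each library's counts (log scale) taken by miR-143-3p (circles) and miR-145a-5p (squares) against library number, 1 point per heart and miRNA, coloured by run. MiR-143-3p stays between 2.20% and 5.35%, while miR-145a-5p, between 0.0731% and 0.810%, has higher medians in runs 1 to 10 and 49 to 59 than in 22 to 48 and 60 to 85, with some overlap of single hearts.

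MiR-143-3p was among the steadier miRNAs from run to run, and miR-145a-5p among the more variable. On the log2 CPM scale with TMM factors, miR-143-3p had a median of 15.25 over all hearts (lowest 14.50, highest 15.84, SD 0.29). Its run medians were 14.84 in libraries 1 to 10, 15.37 in 22 to 48, 15.14 in 49 to 59 and 15.49 in 60 to 85. MiR-145a-5p had a median of 11.15 (10.08 to 12.97, SD 0.73), and run medians of 12.35, 11.01, 12.31 and 10.74 by the same order. The range of the run medians was 0.65 for miR-143-3p, rank 39 of 51 tested miRNAs, and 1.61 for miR-145a-5p, rank 9, beside a median range of 0.87 over all 51.

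The 2 guides had run medians of opposite order between the 2 pairs of runs, by a small amount for miR-143-3p. The runs 1 to 10 and 49 to 59 minus the runs 22 to 48 and 60 to 85 gave a log2 difference of -0.44 for miR-143-3p and 1.46 for miR-145a-5p, where the median of all tested miRNAs was 0.17. With DESeq2 size factors these were -0.51, 1.35 and 0.06, and with CPM without TMM -0.14, 1.71 and 0.46, so the size for miR-143-3p depended on the scaling. Without TMM, its median was 14.99 in libraries 1 to 10, 15.31 in 22 to 48, 15.30 in 49 to 59 and 15.26 in 60 to 85, so that only libraries 1 to 10 were lower than both long runs. MiR-145a-5p was higher in both short runs under each of the 3 scalings. Other miRNAs differed more between the same runs, miR-142a-3p of leukocytes by -3.13 and miR-101a-3p by -3.04 on the TMM scale.

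The ratio of miR-143-3p to miR-145a-5p counts does not depend on any scaling of the libraries. Its median was 19.2, with 3.31 in the lowest heart and 42.9 in the highest. In libraries 1 to 10 the median was 6.54 (3.31 to 10.6), in 22 to 48 it was 20.9 (13.3 to 33.6), in 49 to 59 it was 8.09 (4.68 to 12.7) and in 60 to 85 it was 29.1 (15.8 to 42.9). The highest ratio among the 21 libraries of runs 1 to 10 and 49 to 59, 12.72, was under the lowest among the 53 libraries of the other 2 runs, 13.27.

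The separation was not particular to this pair. Over all 1275 pairs of tested miRNAs, 18% had ratios that did not overlap between the same runs. The share was 20% for miR-143-3p with each of the other 50 miRNAs and 22% for miR-145a-5p, near that background.

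**Figure D2:**
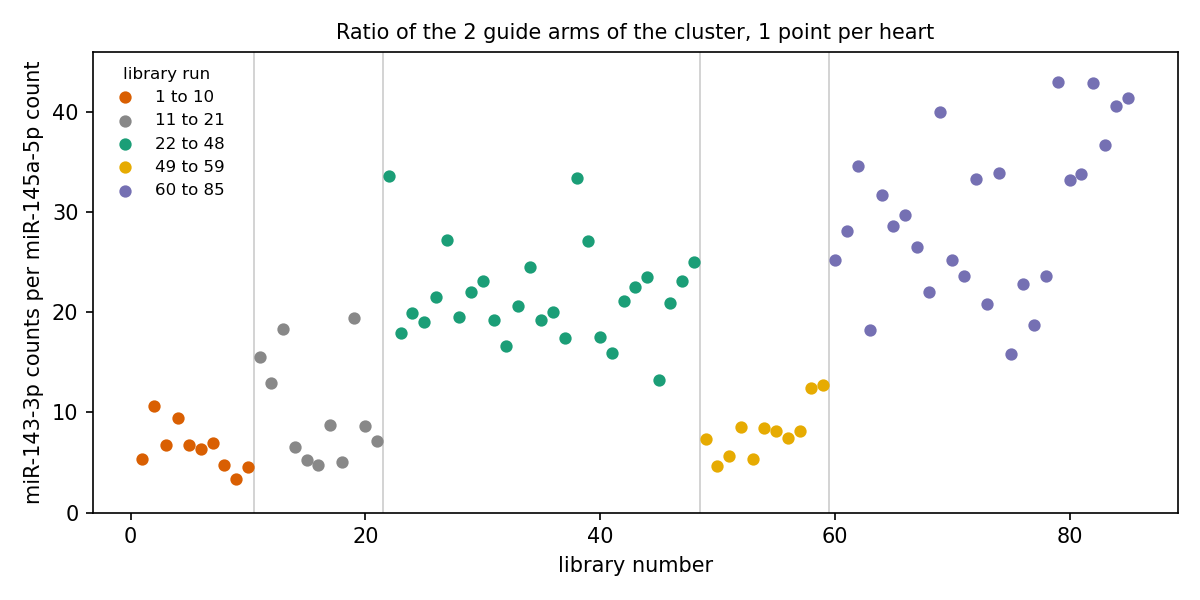
MiR-143-3p counts per miR-145a-5p count (linear axis) against library number, 1 point per heart, coloured by run. Points of runs 1 to 10 and 49 to 59 reach 12.7 at most, points of runs 22 to 48 and 60 to 85 start at 13.3, and libraries 11 to 21 lie on both sides.

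Within libraries 11 to 21 the ratio followed the profile of each library in all but 1 case. The share of other miRNA pairs that do so in these libraries was not counted, so this is not read as particular to the cluster. The 6 libraries of the smaller set had ratios from 4.76 to 8.76. Of the 5 in the larger set, libraries 11, 12, 13 and 19 had 15.5, 12.9, 18.3 and 19.4, and library 14 had 6.50, from 52 and 8 counts in a total of 1457. Within the last run, libraries 79 to 85 held the highest stretch, with 7 ratios from 33.2 to 42.9, against 15.8 to 39.9 in libraries 60 to 78. These 7 were picked after their values were seen, and miR-145a-5p had 8 to 23 counts in them.

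The passenger arms, which were counted apart from the guides, gave a lower ratio in the same 2 runs. Summed over each run, miR-143-5p to miR-145a-3p was 0.444 (interval 0.228 to 0.866) in libraries 1 to 10 and 0.529 (0.333 to 0.841) in 49 to 59. It was 1.57 (1.10 to 2.24) in libraries 22 to 48 and 1.11 (0.792 to 1.56) in 60 to 85, where the interval meets that of libraries 1 to 10 and of 49 to 59. The summed ratio of the guides was 6.08, 7.45, 20.3 and 27.4 by the same order of runs. Libraries 11 to 21 did not follow that order, with 1.53 (0.809 to 2.91) for the passengers beside 8.77 for the guides. The passengers rest on 12 to 77 counts per run, and the guides on at least 517.

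Set against endothelial miR-126a-3p, miR-143-3p kept a nearly level ratio and miR-145a-5p did not. The summed ratio of miR-143-3p to miR-126a-3p was 0.608 in libraries 1 to 10, 0.644 in 22 to 48, 0.690 in 49 to 59 and 0.656 in 60 to 85. The summed ratio of miR-145a-5p to miR-126a-3p was 0.100, 0.0318, 0.0926 and 0.0239 by the same order. The step in the ratio of the 2 cluster guides came with a step of miR-145a-5p. MiR-126a-3p itself differed between the 2 pairs of runs, by -0.33 log2 on the TMM scale, beside -0.44 for miR-143-3p. A level ratio to it therefore does not mean that miR-143-3p was level. The likeness was not particular to this pair, as miR-27a-3p and miR-30a-5p differed by -0.51 each, where the median of all tested miRNAs was 0.17.

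**Figure D3:**
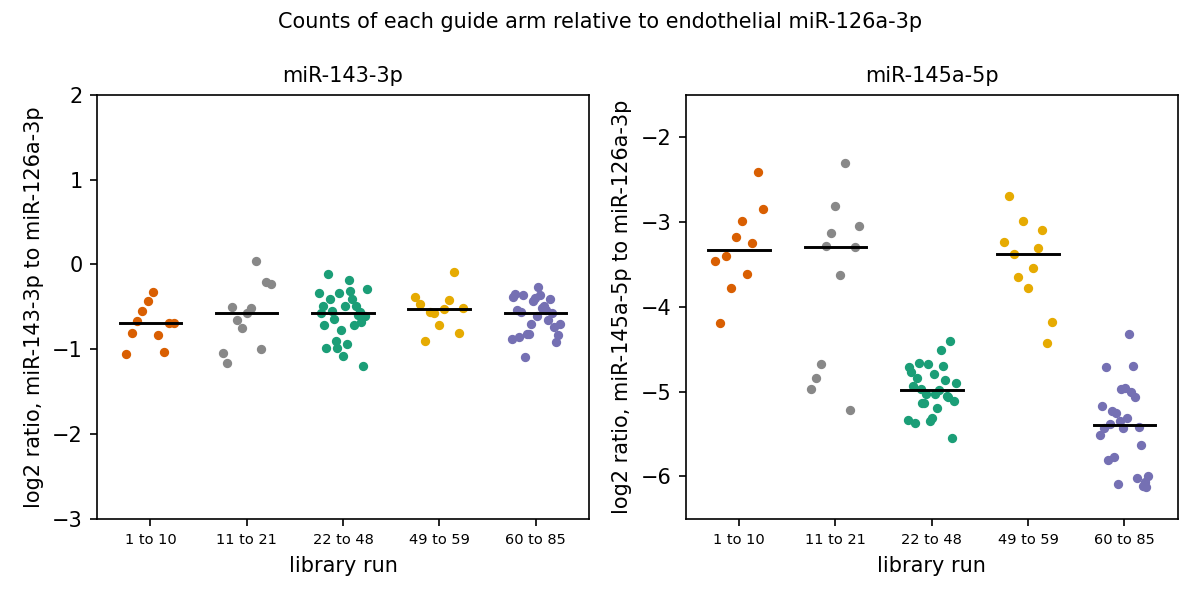
Log2 count ratio of miR-143-3p (left) and miR-145a-5p (right) to miR-126a-3p in each run, 1 point per heart with the median as a bar, both vertical axes spanning 5 log2 units. Run medians of miR-143-3p lie between -0.69 and -0.52, while those of miR-145a-5p lie near -3.33 and -3.38 in runs 1 to 10 and 49 to 59 and at -4.99 and -5.40 in runs 22 to 48 and 60 to 85.

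The spread of the cluster ratio among hearts passed counting error in 3 of 4 runs. Chi-square tests of the 2 guides' counts, adjusted over the 4 runs, compared the spread of the ratio with counting error. In libraries 22 to 48 the SD of the log2 ratio was 0.29 over 27 hearts, no more than the 0.33 that counting alone gives (chi-square per degree of freedom 0.965, adjusted p = 0.514), so a difference between hearts was not detectable at this depth. In libraries 60 to 85 the SD was 0.39 against 0.32 (1.86, adjusted p = 0.0074). In libraries 1 to 10 it was 0.50 against 0.23 (4.94, adjusted p = 2.32e-06), and in 49 to 59 it was 0.45 against 0.19 (6.87, adjusted p = 3.22e-10). The runs were not tested against each other, and miR-145a-5p had a median of 22 counts in libraries 22 to 48 and 75 in 49 to 59, so their power differs. The ratio of miR-143-3p to miR-126a-3p, which rests on more counts, exceeded counting error in each of the 4 runs, with a chi-square per degree of freedom from 5.52 to 10.1.

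Within runs, the correlation of the 2 guides of the transcript was weak. The SD of their log2 ratio within runs was 0.38, of which counting alone gives 0.29. In libraries 22 to 48 the spread of that ratio did not exceed counting error. Counting error weakens r, so a weak r does not show that the guides were weakly related. Over 74 hearts, Pearson's r of their deviations from run means was 0.20 (permutation p = 0.0766, adjusted over 50 miRNAs 0.261) and Spearman's rho was 0.23 (permutation p = 0.0499, adjusted 0.416). Without libraries 9 and 1, which were farthest in miR-143-3p, r was 0.25 (permutation p = 0.0236, adjusted 0.257). The size depended on the scaling, with r of 0.11 (permutation p = 0.353) under DESeq2 size factors and 0.32 (permutation p = 0.00445) with CPM without TMM.

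The relation differed in size among runs, and none of the 4 passed on its own. In libraries 60 to 85, r was 0.35 (rho 0.37, permutation p for r 0.0824, adjusted over the 4 runs 0.316). In libraries 49 to 59, with 11 hearts, r was 0.46 (rho 0.55, permutation p = 0.158, adjusted 0.316). In libraries 22 to 48, r was 0.16 (rho 0.22, permutation p = 0.424, adjusted 0.424), and in libraries 1 to 10, with 10 hearts, it was -0.32 (rho -0.41, permutation p = 0.374, adjusted 0.424). Without the 2 farthest hearts of each run, r was 0.32, 0.23, 0.22 and -0.17 by the same order. The difference between runs was not tested.

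**Figure D4:**
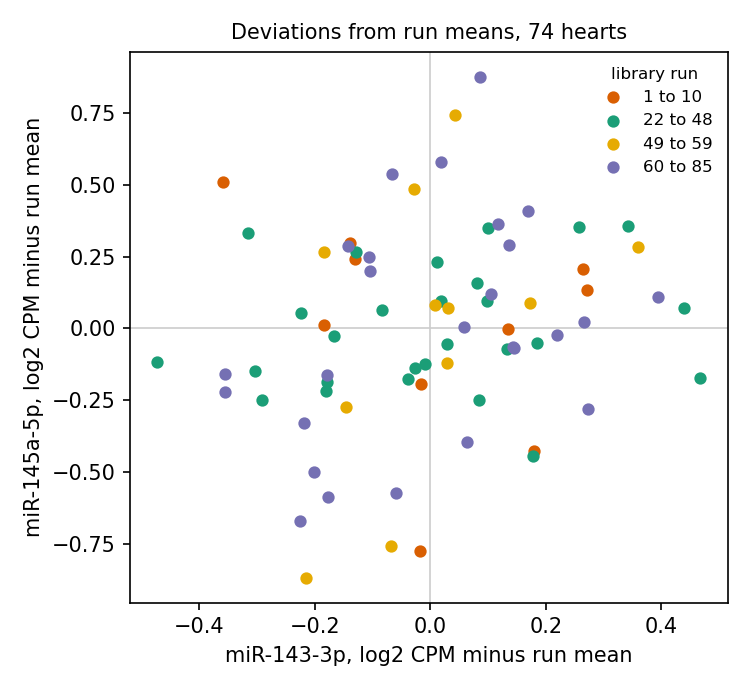
Deviation of each heart's log2 CPM from its run mean, miR-143-3p on the horizontal and miR-145a-5p on the vertical axis, 1 point per heart (74), coloured by run. The cloud tilts weakly upward (r = 0.20), and miR-145a-5p, with fewer counts, spreads further than miR-143-3p.

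The spread of the count ratio within runs uses no scaling. It can be small because a pair of miRNAs moves together or because both vary little, so it is not likeness alone. MiR-126a-3p, first by the observed spread, had r = 0.10 (rho 0.03) with miR-143-3p within runs. Among 50 miRNAs, miR-126a-3p had the smallest within-run SD of its log2 ratio to miR-143-3p, 0.24, of which counting alone gives 0.09, followed by miR-26b-5p with 0.26 (counting 0.16) and miR-30e-5p with 0.27 (counting 0.10). MiR-145a-5p ranked 25 by this measure, with an SD of 0.38 (counting 0.29). With the variance of counting removed, miR-26b-5p came first at 0.20, miR-126a-5p had 0.22, miR-126a-3p ranked 4 at 0.23 and miR-145a-5p ranked 8 at 0.25. From the side of miR-145a-5p, miR-143-3p ranked 1 by the observed SD and 11 with counting removed. No order of likeness is read from either side.

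No miRNA was positively correlated with miR-143-3p within runs after adjustment over 50 miRNAs (0%), and 1 was negatively correlated (2%), with 7 of 50 at an unadjusted permutation p under 0.05. That 1 was the cardiomyocyte miRNA miR-133a-3p, which is nearly identical to miR-133b-3p so that counts could be split between them, with r = -0.39 (permutation p = 0.00071, adjusted 0.0355) and rho = -0.35 (adjusted 0.13). It was negative in 3 runs, -0.72 in libraries 1 to 10, -0.33 in 22 to 48 and -0.51 in 60 to 85, and positive in 49 to 59 at 0.49. Without libraries 9 and 1, r was -0.36 and the adjusted p rose to 0.0885. The call was kept with DESeq2 size factors (r = -0.47, adjusted p = 0.0005) and lost with CPM without TMM (-0.18, adjusted p = 0.354) and with no filter (-0.20, adjusted p = 0.822). The largest positive values were 0.34 for miR-126b-3p (rho 0.31, adjusted p = 0.131) and 0.31 for miR-126a-5p (rho 0.32, adjusted p = 0.148), and both were positive in each of the 4 runs. Both come from the same hairpin region. Without a stated strand setting they may share reads, so they are not 2 separate results. Both passed under other settings. MiR-126b-3p had 0.41 with DESeq2 size factors (adjusted p = 0.00617), 0.43 with CPM without TMM (0.00825) and 0.53 with no filter (0.0109), and miR-126a-5p had 0.35 (0.0419), 0.41 (0.0138) and 0.54 (0.0109) by the same order. Neither passed by rho, given the log2 total or the leading component, in the 2 long runs or without libraries 9 and 1.

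MiR-145a-5p had no positive correlation past the threshold (0%) and 2 negative ones (4%) among 50, with 12 at an unadjusted permutation p under 0.05. MiR-30e-5p had r = -0.39 (permutation p = 0.00122, adjusted 0.0305) and rho = -0.41 (adjusted 0.024), and was negative in all 4 runs. MiR-1b-5p, whose gene overlaps that of the cardiomyocyte miRNA miR-1a on the opposite strand, had r = -0.38 (permutation p = 0.00076, adjusted 0.0305) and rho = -0.33 (adjusted 0.0807), and was also negative in all 4 runs. Without a stated strand setting, miR-1b-5p may share reads with miR-1a-3p, which did not pass (r = -0.26, adjusted permutation p = 0.172). Without libraries 50 and 9, the farthest in miR-145a-5p, the adjusted p-values of miR-30e-5p and miR-1b-5p were both 0.093. With CPM without TMM, miR-30e-5p fell out at -0.24 (adjusted p = 0.11) and miR-1b-5p stayed at -0.46 (adjusted p = 0.001). Neither passed with DESeq2 size factors (-0.33 and -0.36, adjusted p = 0.16 and 0.115) or with no filter (-0.12 each, adjusted p = 0.897 and 0.877). The largest positive r was 0.32 for let-7c-5p (rho 0.25, adjusted p = 0.109), which passed only with CPM without TMM among the alternatives (0.40, adjusted p = 0.00575). Between runs, miR-30e-5p and miR-1b-5p were lower where miR-145a-5p was higher, by -1.86 and -0.96 log2, and let-7c-5p was higher, by 1.58. Such differences were common, since edgeR's test of library number with no run term called 43 of 51 miRNAs (84.3%). The signs between runs are therefore not read as support for the correlations within runs.

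The other vascular and cell type miRNAs gave few calls. Of 6 endothelial miRNAs, 2 were tested, miR-126a-5p and miR-126a-3p, and neither passed with either guide under TMM with the filter. MiR-126a-5p passed with miR-143-3p under the 3 other settings already named. MiR-126a-3p had r = 0.10 with miR-143-3p (rho 0.03, adjusted p = 0.61) and -0.23 with miR-145a-5p (rho -0.24, adjusted p = 0.20). With no filter its r with miR-143-3p was 0.44 (adjusted p = 0.0301), and it did not pass under the other alternatives. Of 8 miRNAs of smooth muscle growth and response to injury, 3 were tested and none passed. MiR-21a-5p, which rises in injured vessels, had 0.20 with miR-143-3p and -0.08 with miR-145a-5p, miR-26a-5p had -0.08 and 0.10, and miR-146a-5p had 0.06 and 0.16. Of 7 fibroblast miRNAs, 5 were tested and none passed, with r from -0.07 to 0.20 for miR-143-3p and from -0.23 to 0.14 for miR-145a-5p. With CPM without TMM, miR-199a-3p and miR-199b-3p, which have the same sequence and whose counts cannot be told apart, passed with miR-143-3p (0.36 and 0.37, adjusted p = 0.0371 and 0.0328) and with miR-145a-5p (0.28 and 0.29, adjusted p = 0.0287 and 0.0235).

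Of 5 cardiomyocyte miRNAs, 4 were tested and 1 passed, miR-133a-3p with miR-143-3p, at 0.23 with miR-145a-5p (adjusted p = 0.216, and 0.33 with adjusted p = 0.0183 with CPM without TMM). MiR-1a-3p had the opposite signs, 0.14 with miR-143-3p (0.47, adjusted p = 0.0301, where low counts were kept) and -0.26 with miR-145a-5p (adjusted p = 0.172, and -0.31 with adjusted p = 0.0243 with CPM without TMM). MiR-208a-3p had 0.05 with each guide, and miR-499-5p had -0.19 with miR-143-3p and -0.11 with miR-145a-5p. The median r of these 4 was -0.07 with miR-143-3p, beside 0.04 over all 50. The leukocyte miRNA miR-142a-3p was the only one of 5 tested, with r of 0.21 and -0.05, and miR-451a of red cells was the only one of 4, with 0.14 and 0.03. No untested member of these lists had more than 1322 counts over all libraries.

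**Figure D5:**
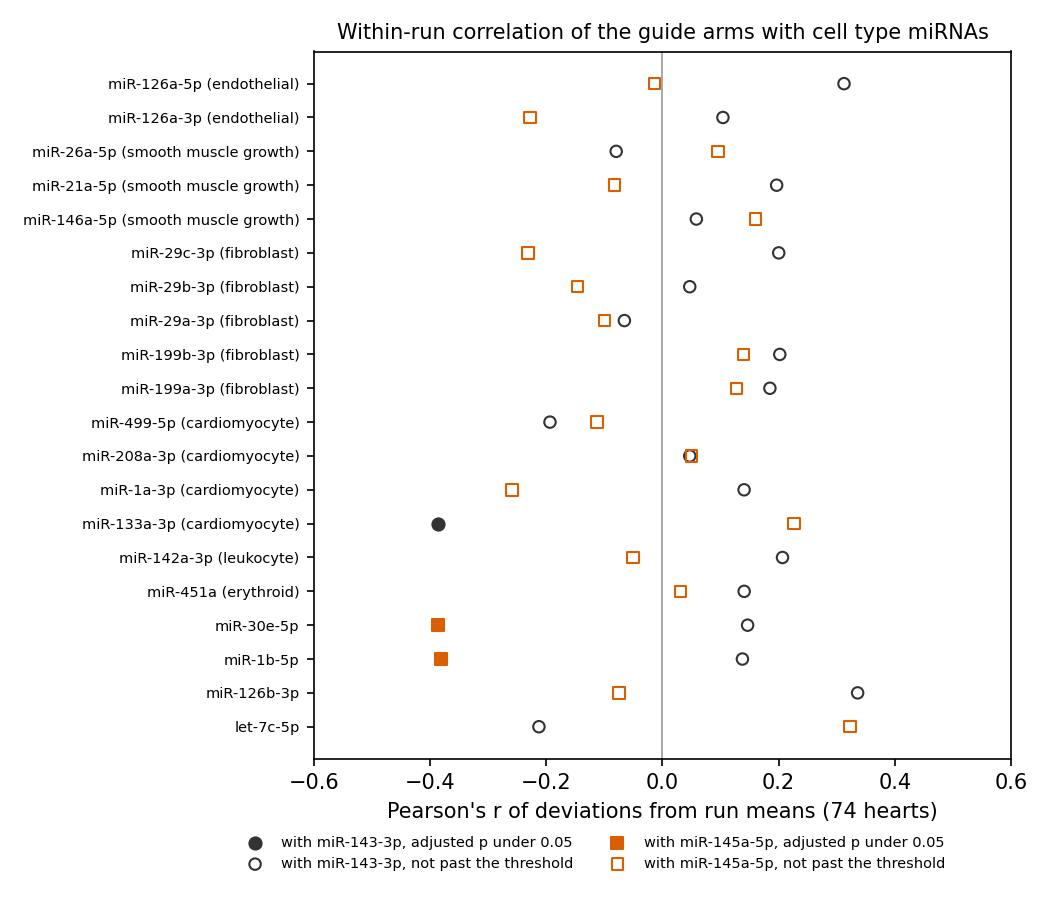
Pearson's r of miR-143-3p (circles) and miR-145a-5p (squares) with miRNAs of each cell type list and with the 3 of largest absolute r, over 74 hearts, with TMM factors and the filter, filled where the adjusted p was under 0.05. The filled points are miR-133a-3p with miR-143-3p at -0.39, and miR-30e-5p and miR-1b-5p with miR-145a-5p at -0.39 and -0.38.

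Neither guide passed the test for a trend with library number within runs. In edgeR's quasi-likelihood test, miR-143-3p changed by -0.01 ± 0.04 (SE) log2 per 10 libraries (adjusted p = 0.938) and miR-145a-5p by -0.06 ± 0.07 (adjusted p = 0.77). None of the 51 tested miRNAs passed (0%), with 7 at an unadjusted p under 0.05, and DESeq2's Wald test also gave 0, with 8. Over all 85 libraries with no term for the runs, edgeR's test called 43 of 51 miRNAs (84.3%), among them miR-143-3p with 0.06 ± 0.01 (adjusted p = 7.53e-07) and miR-145a-5p with -0.17 ± 0.03 (adjusted p = 1.66e-06). Read against that share, these 2 calls say nothing particular of the cluster. The relation of the guides' log2 ratio with the log2 library total within runs did not pass (r = -0.17, permutation p = 0.137, rho = -0.17, permutation p = 0.148, and r = -0.16 without the 2 farthest hearts).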

How the data were processed

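The authors extracted total RNA with a miRNeasy kit, made QIAseq miRNA libraries, mapped reads with HISAT2 2.0.6 to mm10 and counted them with HTSeq 0.13.5 (build and versions per the submitters' processing notes). The deposited values are raw counts per mature miRNA. Trimming, annotation, strand setting and use of molecular identifiers are not given in the sources used here. Counts were filtered with filterByExpr (minimum count 10 in at least 63 libraries, minimum total 15) and scaled by TMM in edgeR 4.0.16 (R 4.3.3), with a prior count of 2. The trend was fitted with glmQLFit and glmQLFTest, with run as a term and Benjamini-Hochberg adjustment at 0.05. Correlations used deviations from run means and two-sided permutations within runs (100000 resamples, numpy 2.4.6, scipy 1.17.1), and ratios added 0.5 to each count only on the log scale. Tests were tested on simulated data. The named miRNAs are the members, tested members of the cell type lists and the 3 with the largest absolute r with each guide. MiR-101a-3p, miR-26b-5p, miR-27a-3p and miR-30a-5p were added after values were seen. So were the ratios to miR-126a-3p, the spread of ratios with and without counting error and the overlap of pairs. Members, lists and runs were chosen with earlier results of these data known. The sequences of the members are not reported here. Each library is 1 animal, and p-values of the correlations and the trend measure the spread between animals of different strains. Those of the chi-square tests of the ratios measure spread beyond counting error. Alternatives were DESeq2 1.42.0, CPM without TMM, no filter, a prior count of 0.5, the 84 libraries with at least 3062 counts, partial correlations, and the 2 long runs.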

Additional observations from a re-analysis of the deposited data

How the results depend on the processing

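The median levels and the median ratio over all 85 hearts moved by less than 1 SD between hearts under every alternative tried for them. That SD includes the steps between runs, so the check is loose. The difference of miR-143-3p between the 2 pairs of runs was -0.44 with TMM, -0.51 with DESeq2 size factors and -0.14 with CPM without TMM. The arm shares stayed within their Wilson intervals. The relation of the ratio with the library total did not pass the threshold under any alternative. The correlation of the 2 guides within runs, 0.20 by the planned fit, passed an unadjusted p of 0.05 at 0.316 with CPM without TMM, 0.251 with no filter, 0.231 as Spearman's rho, 0.267 given the leading component and 0.255 without the 2 farthest libraries. It was 0.108 (permutation p = 0.353) with DESeq2 size factors, and 0.203, 0.199, 0.217 and 0.256, not past it, with a prior count of 0.5, in the deeper libraries, given the log2 total and in the 2 long runs. The deeper libraries leave out only library 14, which entered no correlation and no within-run trend. For these, that setting holds the same 74 hearts and is no check of depth. The number of miRNAs correlated with miR-143-3p, 1, was 7 with DESeq2 size factors (2 positive), 6 with CPM without TMM (6 positive, miR-133a-3p not among them), 7 of 547 with no filter (6 positive), and 0 by Spearman's rho, given the log2 total, given the leading component, in the 2 long runs and without the 2 farthest libraries. For miR-145a-5p, 2 became 17 with CPM without TMM (15 positive, and miR-30e-5p not among them), 1 by rho, and 0 with DESeq2 size factors, with no filter, given the leading component, in the 2 long runs and without the 2 farthest libraries. The trend gave 3 calls with CPM without TMM and 43 with no run term. The cause of these changes was not tested. Depth limits miR-145a-5p and both passengers most.

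Single correlations also changed sign. With miR-143-3p and CPM without TMM, miR-26a-5p turned to 0.165 and miR-29a-3p to 0.14, and with no filter to 0.101 and 0.254. Given the leading component, miR-26a-5p was 0.0281, miR-29a-3p 0.049, miR-29b-3p -0.0485 and miR-208a-3p -0.14. In the 2 long runs, miR-1a-3p was -0.0145, miR-208a-3p -0.0794 and miR-29a-3p 0.00882, and miR-208a-3p was -0.0104 without the 2 farthest libraries.

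With miR-145a-5p and CPM without TMM, miR-126a-5p turned to 0.115, miR-21a-5p to 0.0512, miR-29a-3p to 0.0897 and miR-29b-3p to 0.0389. With no filter, miR-126a-3p was 0.00172, miR-126a-5p 0.137, miR-21a-5p 0.0173, miR-29a-3p 0.0318 and miR-451a -0.0141. With DESeq2 size factors, miR-26a-5p was -0.0566 and miR-451a -0.0138. Given the leading component, miR-126a-5p was 0.126, miR-142a-3p 0.195, miR-21a-5p 0.0528, miR-26a-5p -0.0126 and miR-499-5p 0.0114. In the 2 long runs, miR-142a-3p was 0.012, miR-21a-5p 0.0146, miR-29b-3p 0.0493 and miR-499-5p 0.0995. By rho, miR-126a-5p was 0.0244, and without the 2 farthest libraries it was 0.0596 and miR-21a-5p 0.000831. The within-run trend of miR-143-3p, -0.005 log2 per 10 libraries, turned to 0.0229 with DESeq2 size factors, 0.0159 by DESeq2's Wald test and 0.0629 with no run term. No paired analysis was possible because there is 1 group.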
